A study of Homo sapiens with 15 samples.

Results

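U937 is an established human myeloid leukemia line with monocytic features. The experiment described here asked what changed across all measured genes when a second compound, LSN622666, was added to U937 cells treated with prexasertib. The members were the 3 libraries labelled prexasertib with LSN622666, called the combination libraries below, and the 3 libraries labelled prexasertib. They are 6 of the 15 RNA-seq libraries of the series, which also holds 3 U937 diluent libraries and 6 libraries of another myeloid leukemia line, ML1. Prexasertib was given at 10 nM and LSN622666 at 350 nM for 24 h, and every culture, diluent included, also received 5 µM Q-VD-OPh, a pan-caspase inhibitor. No group received LSN622666 alone, so a change describes the second compound in the presence of prexasertib and of the caspase inhibitor. The study asked which possible TNF transcription factors change under these treatments. The labels number the libraries 1 to 3 in each group but do not say whether they came from separate cultures, so the p-values measure the spread between these libraries, which may be technical.

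Prexasertib inhibits CHK1, the checkpoint kinase that restrains CDK activity while DNA is being copied, and cells that lose this brake accumulate replication damage. Damage and other stress signals reach transcription through the JNK and p38 kinases, which act on AP-1 factors such as JUN, FOS and ATF3, through NF-kB, which drives cytokines and survival genes, and through p53 and the integrated stress response. In myeloid cells these routes feed cytokine genes, TNF among them. LSN622666 is known here only by its code name, and nothing is assumed about its target.

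Library totals of the 6 libraries ran from 60261136 to 81764532 counts, and those of the U937 diluent libraries from 49011222 to 70978970. Between 19742 and 21023 genes had a count in the prexasertib libraries and between 19006 and 19524 in the combination libraries. Prexasertib replicate 2 stood somewhat apart: its correlation with the other prexasertib libraries on log2 CPM (CPM being counts scaled to a common library size) was 0.982, while the 3 combination libraries correlated at 0.9854 to 0.991. Some myeloid genes marked the line in both groups. The granule protease gene ELANE averaged 700 CPM with prexasertib and 706 CPM with the combination, LYZ (lysozyme) 136 and 174 CPM, and CD33 67.5 and 80.8 CPM. Other monocyte and progenitor markers were low in both groups. S100A8 averaged 0.869 CPM with prexasertib and 0.907 CPM with the combination, and KIT 0.508 and 0.669 CPM. CD14, CD34 and MPO also lay far below ELANE, LYZ and CD33. Of 20 markers of non-myeloid cells, CD3D, CD3E, MS4A1 and EPCAM had no count in any of the 6 libraries, and 13 stayed under 1 CPM. The summed level of the 20 was 124 to 186 CPM with prexasertib and 150 to 171 CPM with the combination. Genes of any type at or above the G and C content that marks the richest 20% of tested genes were also summed. They took 15.8% to 16.2% of counts with prexasertib and 17.3% to 18.7% with the combination, with no overlap between the groups. In bulk RNA, fewer cells in a state and less RNA per cell cannot be told apart.

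Adding LSN622666 changed genes in both directions, and the falls reached further. Of 17243 tested genes, 2947 (17.1%) were called lower and 2048 (11.9%) higher in the combination libraries than in the prexasertib libraries, at an adjusted p under 0.05 (quasi-likelihood test of edgeR, p-values adjusted by Benjamini and Hochberg's method). At least a 2-fold change was found for 1253 genes (7.27%) that fell and 594 (3.44%) that rose. All 3 combination libraries lay below all 3 prexasertib libraries for 4034 genes (23.4%) and above them for 3236 (18.8%). The median log2 fold change over all tested genes was 0.01. The replicate numbers paired these groups, and with the replicate number as a block 2721 genes were called higher and 3321 lower in the fit to 15 libraries, and 3733 and 3704 in the fit to the 6 libraries. Upper-quartile scaling gave 2633 higher and 2560 lower, so whether more genes fell than rose depended on the fit and the scaling. Without prexasertib replicate 2 the counts were 1105 higher and 1794 lower, and the higher count was 1331 without combination replicate 1 and 1362 without combination replicate 3.

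**Figure D1:**
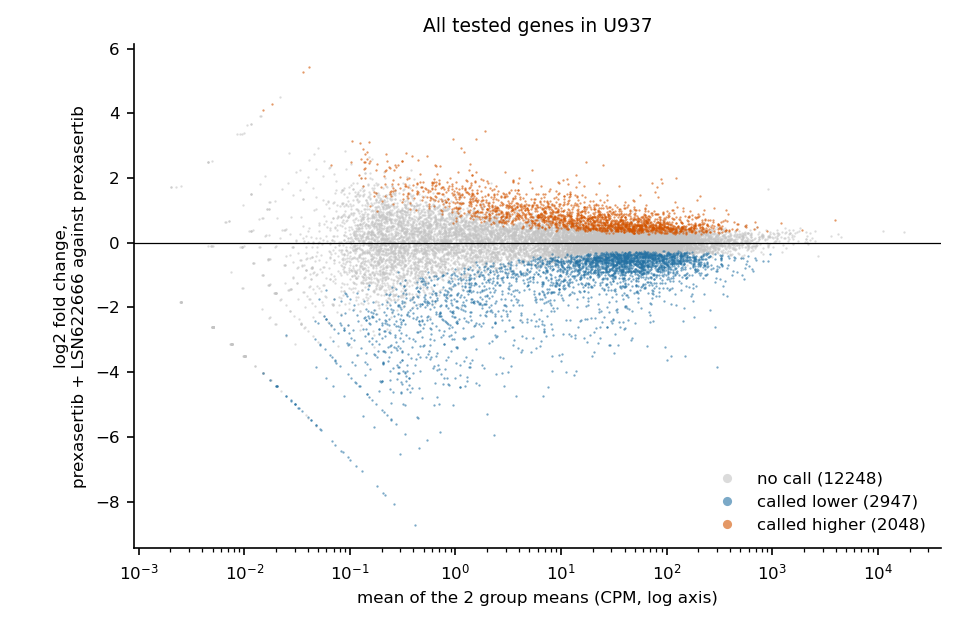
Each point is 1 of the 17243 tested genes, placed by its level (mean of the group means in CPM, log axis) and its log2 fold change, combination against prexasertib. Genes called lower (2947, blue) reach further from 0 than genes called higher (2048, orange), and the straight lines of points at low levels are genes with few counts.

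Among the AP-1 and ATF transcription factors, which bind DNA as dimers and switch on stress-response genes, JUN fell most. JUN (chr1:58780788-58784327 on GRCh38, minus strand, a gene of 1 exon) had 482, 856 and 336 CPM in prexasertib replicates 1 to 3 and 27.2, 64.7 and 24.9 CPM in combination replicates 1 to 3. The groups were far apart, and 2 of the 3 combination libraries lay within the range of the diluent libraries (24.9 to 30.1 CPM), with replicate 2 above it. The log2 fold change was −3.84 ± 0.41 (SE, n = 3 per group; adjusted p = 2.2e-05), a 14.3-fold fall. ATF3, a stress-induced factor of the same family, had 132, 319 and 104 CPM with prexasertib and 9.29, 26.2 and 9.32 CPM with the combination. It fell by 3.63 ± 0.46 on the log2 scale (adjusted p = 9.5e-05), with values from −2.98 without prexasertib replicate 2 to −4.31 without combination replicate 2. FOS, the classical partner of JUN, had 42.4, 80.1 and 31.8 CPM against 8.05, 15.2 and 6.72 CPM. All 3 combination libraries were below all 3 prexasertib libraries but above the diluent libraries (2.63 to 5.49 CPM), and the log2 fold change was −2.37 ± 0.37 (adjusted p = 0.0004).

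Of the 23 AP-1 and ATF genes, all of them tested, 18 were called lower and 5 were not called, against 17.1% called lower over all tested genes. Their median log2 fold change was −0.60, with 9 at least 2-fold lower. JUND fell from 184, 202 and 136 CPM to 45.9, 53.3 and 42.9 CPM (−1.88 ± 0.15, adjusted p = 1.6e-06). JUND and JUNB (−1.59 ± 0.22, adjusted p = 7.8e-05) carry the same kind of DNA-binding and leucine-zipper region as JUN. MAFF, a small MAF protein that pairs with stress factors, fell from 58.1, 59.1 and 37.7 CPM to 11.7, 10.7 and 5.27 CPM. Its log2 fold change was −2.49 ± 0.28 (adjusted p = 2.0e-05). The fall was thus shared by JUN-type, FOS-type and MAF-type members, and it was unequal among them. CREB5, a CRE-binding relative of ATF2 outside the list, was among the 12 genes with the largest falls: it had 21.5, 37.3 and 16.2 CPM with prexasertib and 0.986, 2.41 and 1.01 CPM with the combination (−4.09 ± 0.45, adjusted p = 1.5e-05).

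Immediate early genes are switched on within minutes of a signal, and several encode phosphatases that turn MAP kinases off again. Of 33 tested, 29 (87.9%, against 17.1% over all genes) were called lower and 4 were not called. Their median log2 fold change was −1.67, and 25 were at least 2-fold lower. DUSP8, a phosphatase that acts on JNK, had 18.9, 31.5 and 12.7 CPM with prexasertib and 1.02, 2.09 and 0.826 CPM with the combination. That is a 16-fold fall (log2 −4.00 ± 0.40, adjusted p = 1.1e-05), and the combination libraries still lay above the diluent libraries, which ran from 0.428 to 0.432 CPM. DUSP1, a phosphatase for p38 and JNK, fell from 58, 63.3 and 33.9 CPM to 3.96, 9.37 and 4.19 CPM (−3.15 ± 0.32, adjusted p = 1.1e-05). CSRNP1, a nuclear protein first described as induced by AXIN1, had 58.6, 63.8 and 39.9 CPM against 13.1, 13.1 and 12 CPM (−2.09 ± 0.14, adjusted p = 5.7e-07). Its combination libraries lay at the level of the diluent libraries (11.8 to 13.5 CPM). BTG2, an antiproliferative gene that p53 also induces, fell by 2.15 ± 0.19 on the log2 scale (adjusted p = 3.2e-06).

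The promoter of DUSP8 is shown because it holds a pair of matches to the CRE element, the site of ATF and CREB dimers, spelled TGACGTCA and identical on both strands. The 250 bases before the RefSeq start (GRCh38.p14, chr11:1572272-1572521, minus strand) are given 5′ to 3′ with the matches in capitals.
DUSP8: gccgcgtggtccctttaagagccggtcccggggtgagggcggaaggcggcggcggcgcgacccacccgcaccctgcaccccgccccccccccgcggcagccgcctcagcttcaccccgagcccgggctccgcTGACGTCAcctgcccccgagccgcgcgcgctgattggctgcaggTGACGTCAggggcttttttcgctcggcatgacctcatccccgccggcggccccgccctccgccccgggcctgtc
The matches begin 118 and 74 bases before the start. The CRE letters were found in 603 of 35116 RefSeq promoter windows of this length (1.72%) and in 2 of the 19 windows matched to the AP-1 and ATF list. The AP-1 letters TGANTCA, searched on both strands, were in 6.37% of all windows and in 1 of those 19. That list holds the factors themselves. DUSP8 belongs to the immediate early list, whose windows were not counted. A match is a description of the letters and not a measured binding site.

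NF-kB subunits and targets fell in the same libraries. Of 29 tested genes of this list (32 members), 26 (89.7%, against 17.1% over all genes) were called lower and 3 were not called. Their median log2 fold change was −1.60, and 20 were at least 2-fold lower. CXCL8, a chemokine that attracts neutrophils (chr4:73740506-73743716), had 255, 226 and 127 CPM with prexasertib and 15.9, 28.5 and 9.69 CPM with the combination. The log2 fold change was −3.49 ± 0.35 (adjusted p = 1.3e-05). The combination libraries were far below the prexasertib libraries, and the lowest of them lay within the diluent range (5.79 to 10.6 CPM). BIRC3, a ubiquitin ligase that protects cells from TNF-induced death, fell from 16.9, 27 and 17 CPM to 3.42, 5.87 and 2.24 CPM (−2.40 ± 0.31, adjusted p = 4.3e-05). ICAM1, an adhesion molecule, fell from 177, 248 and 164 CPM to 55.6, 60.8 and 38.2 CPM (−1.93 ± 0.20, adjusted p = 1.3e-05), across the diluent range of 44.8 to 56.9 CPM. PLAU, the urokinase gene, fell by 1.10 ± 0.13 on the log2 scale (adjusted p = 3.1e-05), with 31.1% of its exonic bases overlapping another gene.

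The promoter of CXCL8 is shown because its window holds a match to each of an AP-1 and an NF-kB element (GRCh38.p14, chr4:73740319-73740568, plus strand, matches in capitals).
CXCL8: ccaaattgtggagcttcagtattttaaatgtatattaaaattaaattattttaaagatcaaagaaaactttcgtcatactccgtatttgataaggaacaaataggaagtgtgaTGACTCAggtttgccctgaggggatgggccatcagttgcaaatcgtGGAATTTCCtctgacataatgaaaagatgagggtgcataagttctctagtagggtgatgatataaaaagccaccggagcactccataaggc
The AP-1 match begins 137 bases and the NF-kB match 91 bases before the start. The NF-kB letters, searched as GGANTTTCC on both strands, were in 10 of the 26 windows matched to this list (38.5%) and in 1.44% of all windows. The list was assembled from known NF-kB targets, so a high share is a property of how it was chosen.

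The TNF family ligands and the death receptor pathway changed less evenly. Of 25 tested genes (27 members), 13 (52%, against 17.1% over all genes) were called lower, with a median log2 fold change of −0.50. Without prexasertib replicate 2, 7 were called lower. TNF itself had 14.7, 24.6 and 10.2 CPM with prexasertib and 5.97, 10.4 and 4.17 CPM with the combination, and the groups overlapped slightly. It was lower in each of the 3 pairs, by 1.30, 1.24 and 1.29 on the log2 scale. Its log2 fold change was −1.27 ± 0.37 (adjusted p = 0.02), and the call ended without prexasertib replicate 2 (adjusted p = 0.097), combination replicate 1 (0.075) or combination replicate 3 (0.089), in edgeR's quasi-likelihood test. That fit has no replicate block, so the pairs do not enter its error or p-values, and leaving out 1 library breaks a pair. TNFSF9, the ligand of the co-stimulatory receptor 4-1BB, fell from 53.2, 87.7 and 49.9 CPM to 15.5, 19.6 and 13.4 CPM (−1.97 ± 0.20, adjusted p = 1.1e-05). CYLD, a deubiquitinase that limits NF-kB signalling, fell from 72.9, 109 and 54.9 CPM to 28, 30.7 and 22.9 CPM (−1.54 ± 0.21, adjusted p = 9.0e-05). The receptor gene TNFRSF10B, which encodes a TRAIL receptor, fell by 0.93 ± 0.14 (adjusted p = 0.00018), and CASP10, an initiator caspase, by 1.00 ± 0.15 (adjusted p = 0.0002). TNFRSF1A, the main TNF receptor, had 146, 95.1 and 140 CPM against 142, 123 and 137 CPM (0.08 ± 0.18, adjusted p = 0.78). RIPK3, a kinase of necroptosis, was the single member called higher (0.46 ± 0.17, adjusted p = 0.05 after rounding), and this was lost without prexasertib replicate 2 or 3, combination replicate 1 or 3, or diluent replicate 3 (adjusted p = 0.06 to 0.26).

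**Figure D2:**
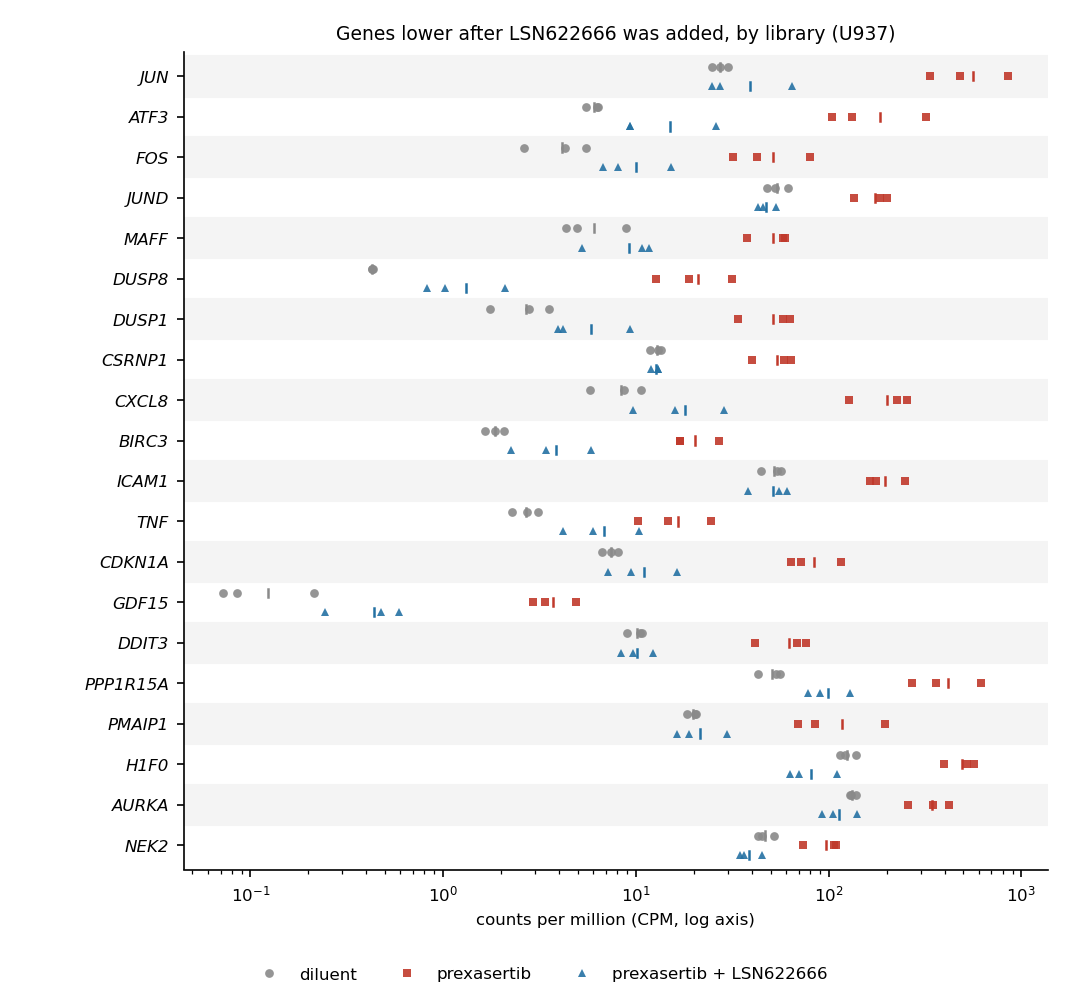
Levels in CPM (log axis) of 20 genes that were lower with the combination, by library: grey circles are diluent, red squares prexasertib and blue triangles the combination, with 3 libraries per group and a vertical tick at each group mean. The combination libraries lie left of the prexasertib libraries for each gene except TNF, where 1 combination library reaches the lowest prexasertib library, and they lie near the diluent libraries for JUND, CSRNP1, ICAM1 and DDIT3.

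Among 27 tested JNK, p38 and GADD45 genes, which include the kinases upstream of AP-1, 7 (25.9%) were called lower and 4 (14.8%) higher, against 17.1% and 11.9% over all genes. The median log2 fold change was −0.03, and 4 were called lower without prexasertib replicate 2. GADD45B, a stress sensor that binds a JNK pathway kinase, fell from 77, 185 and 71 CPM to 28.2, 34.6 and 27.5 CPM. Its log2 fold change was −1.88 ± 0.34 (adjusted p = 0.001), and −1.29 without prexasertib replicate 2. MAP3K8, a kinase of the TNF-producing ERK route, fell by 1.21 ± 0.23 (adjusted p = 0.00097). MAPK11, the gene of the p38-beta kinase, rose from 7.08, 4.76 and 6.55 CPM to 12.8, 12.3 and 12.4 CPM (1.03 ± 0.17, adjusted p = 0.00042). MAP3K6, a relative of ASK1, rose from 19.6, 16.8 and 21.7 CPM to 34.2, 40.6 and 33.1 CPM (0.89 ± 0.14, adjusted p = 0.00026). For both genes all 3 combination libraries also lay above the 3 diluent libraries. Against diluent MAPK11 was called higher (log2 fold change 0.68) and MAP3K6 was not called (0.41).

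Of 30 tested p53 target genes, 16 (53.3%, against 17.1% over all genes) were called lower and 14 were not called. Their median log2 fold change was −0.53. U937 is known as a line without functional p53, so the list is named for its genes and not for p53 activity. CDKN1A (p21), an inhibitor of CDKs, had 71.6, 116 and 64 CPM with prexasertib and 9.45, 16.4 and 7.15 CPM with the combination, against 6.67 to 8.1 CPM in the diluent libraries. It fell 7.63-fold (log2 −2.93 ± 0.29, adjusted p = 1.1e-05). GDF15, a stress cytokine, was low throughout, with 3.37, 4.88 and 2.94 CPM against 0.478, 0.588 and 0.243 CPM (−3.10 ± 0.34, adjusted p = 1.4e-05). SESN2, a stress protein that restrains mTORC1, fell from 63.5, 98.7 and 67.8 CPM to 22.3, 32.5 and 27 CPM (−1.49 ± 0.20, adjusted p = 6.3e-05).

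Among 30 tested genes that respond to unfolded proteins or to integrated stress signalling, 15 (50%, against 17.1% over all genes) were called lower. Their median log2 fold change was −0.42. DDIT3 (CHOP), a transcription factor of this response, fell from 68.4, 76.4 and 41.7 CPM to 8.42, 12.3 and 9.67 CPM (−2.62 ± 0.19, adjusted p = 9.0e-07). The combination libraries lay around the diluent range of 8.98 to 10.7 CPM. Another gene overlaps 31.6% of the exonic bases of DDIT3. PPP1R15A (GADD34), which reverses the translational block of this response, fell from 362, 617 and 270 CPM to 90.1, 129 and 78.3 CPM (−2.07 ± 0.25, adjusted p = 2.9e-05), still above the diluent libraries (43.1 to 55.9 CPM). TRIB3, a pseudokinase induced by CHOP, fell by 0.80 ± 0.12 (adjusted p = 0.00022) to levels below the diluent libraries. TRIB3 was not called against diluent (log2 fold change −0.33).

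In the BCL2 family, whose members set the threshold for mitochondrial death, 8 of 18 tested genes were called lower and 10 were not called. The share called lower was 44.4%, against 17.1% over all genes. The count was 5 without prexasertib replicate 2 or without combination replicate 3. PMAIP1 (NOXA), a death-promoting member, fell from 85.1, 197 and 69.2 CPM to 16.3, 29.8 and 18.8 CPM (−2.44 ± 0.33, adjusted p = 0.00013), and by 1.83 without prexasertib replicate 2. MCL1, a survival member that NOXA binds, fell from 419, 467 and 310 CPM to 167, 229 and 164 CPM (−1.09 ± 0.16, adjusted p = 0.00015). Death-promoting BBC3 (PUMA) fell by 0.86 ± 0.20 (adjusted p = 0.004). The lower calls thus held both death-promoting and survival members.

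Genes of G2 and mitosis, which build the spindle and drive chromosome segregation, fell almost as a group. Of 39 tested genes, 38 were called lower, and all 3 combination libraries lay below all 3 prexasertib libraries for 38, against 17.1% called lower and 23.4% without overlap over all genes. The median log2 fold change was −0.84, and the range was −1.60 to −0.40. AURKA, a spindle pole kinase (chr20:56369389-56392337), had 350, 423 and 257 CPM with prexasertib and 92.5, 140 and 106 CPM with the combination (−1.60 ± 0.19, adjusted p = 2.2e-05). The diluent libraries had 129 to 139 CPM, and 2 of the 3 combination libraries lay below them. NEK2, a centrosome kinase, fell from 109, 107 and 74 CPM to 34.7, 45.2 and 36.2 CPM (−1.32 ± 0.15, adjusted p = 2.0e-05). KIF20A, a motor of cytokinesis, fell by 1.45 ± 0.18 (adjusted p = 3.5e-05) and CKAP2, a spindle protein, by 1.10 ± 0.14 (adjusted p = 4.0e-05).

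The promoter of PLK1, a mitotic kinase of this list chosen for display after its values were seen, holds both elements that are typical of such genes: a CCAAT box (CCAAT) and a CHR (TTTGAA). PLK1 had 394, 489 and 319 CPM with prexasertib and 135, 221 and 158 CPM with the combination (−1.22 ± 0.19, adjusted p = 0.00023). The window is chr16:23678639-23678888 on GRCh38.p14, plus strand, with the matches in capitals.
PLK1: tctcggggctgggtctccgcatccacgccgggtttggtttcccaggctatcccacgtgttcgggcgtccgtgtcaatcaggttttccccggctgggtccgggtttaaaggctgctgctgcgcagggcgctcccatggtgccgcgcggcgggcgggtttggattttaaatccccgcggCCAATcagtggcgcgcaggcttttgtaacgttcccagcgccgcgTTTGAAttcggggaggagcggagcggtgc
The CCAAT box begins 73 bases and the CHR 29 bases before the start. Searched on both strands, CHR letters were in 17 of the 33 windows matched to this list (51.5%) and in 13.2% of all 35116 windows. CCAAT letters were in 25 of the 33 (75.8%) and in 32.6% of all windows. All windows, here and for the other lists, include genes that were not tested. The list was assembled from known G2 and mitosis genes, so these shares are descriptions only.

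Among CDKs, cyclins, CDK inhibitors and checkpoint kinases, 17 of 39 tested genes (43.6%) were called lower and 2 (5.13%) higher, with a median log2 fold change of −0.35. Over all genes the shares were 17.1% and 11.9%. With the replicate block in the 6 libraries, 6 were called higher. CHEK1, which encodes the kinase that prexasertib inhibits, had 63.1, 85.8 and 64.4 CPM with prexasertib and 38.7, 53 and 45 CPM with the combination (−0.64 ± 0.14, adjusted p = 0.0022). All 3 combination libraries also lay below the diluent libraries (59.8 to 64 CPM). CDK2, named in the study's title, had 46.1, 39.2 and 49.3 CPM against 42.2, 52 and 50.2 CPM, with overlapping groups (0.10 ± 0.12, adjusted p = 0.57). WEE1, the kinase that holds CDK1 and CDK2 in check, fell from 104, 144 and 96.2 CPM to 32.9, 60.7 and 41.6 CPM (−1.35 ± 0.19, adjusted p = 7.9e-05). Of the INK4 inhibitors of CDK4 and CDK6, CDKN2D fell from 41.2, 41.4 and 27.5 CPM to 10.2, 9.89 and 6.32 CPM (−2.06 ± 0.24, adjusted p = 2.2e-05), and CDKN2C fell by 0.88 ± 0.16 (adjusted p = 0.00072). CDK6 rose from 227, 167 and 217 CPM to 302, 277 and 295 CPM (0.52 ± 0.12, adjusted p = 0.0032), within the diluent range at its upper libraries (287 to 333 CPM).

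DNA replication genes moved less. Of 43 tested E2F targets and replication genes, 12 (27.9%) were called lower and 1 (2.33%) higher, against 17.1% and 11.9% over all genes. Their median log2 fold change was −0.21. The lower count was 5 without prexasertib replicate 2, 6 without combination replicate 1 and 7 without combination replicate 3. The higher call ended without prexasertib replicate 1 or 2 or combination replicate 2. E2F2, an activating E2F, fell from 37.5, 82.5 and 51.6 CPM to 14.9, 25.1 and 16.3 CPM (−1.61 ± 0.25, adjusted p = 0.00026). E2F8, a repressing E2F, fell from 73.4, 94.8 and 64.8 CPM to 35.1, 46.5 and 38.6 CPM (−0.96 ± 0.14, adjusted p = 0.00011). ORC6, an origin-binding subunit, fell by 0.68 ± 0.15 (adjusted p = 0.0033) and GMNN (geminin), which blocks re-licensing of origins, by 0.70 ± 0.16 (adjusted p = 0.0041). For E2F2 and E2F8 all 3 combination libraries lay below the 3 diluent libraries as well.

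Histone genes had the lowest median of the 27 lists. Of 31 tested (32 members), 30 (96.8%, against 17.1% over all genes) were called lower and 1 was not called. The median log2 fold change was −2.34, with a range of −4.19 to −1.04. The list took 0.111% to 0.175% of all counts in the prexasertib libraries, 0.0271% to 0.0498% in the combination libraries and 0.0341% to 0.0359% in the diluent libraries. H1F0, a linker histone gene whose RNA carries a poly(A) tail, had 521, 568 and 396 CPM with prexasertib and 70, 111 and 63.2 CPM with the combination. The log2 fold change against prexasertib was −2.61 ± 0.24 (adjusted p = 5.2e-06). Its combination libraries lay below the diluent libraries (115 to 139 CPM), but H1F0 was not called against diluent (−0.63). H1FX, another linker histone gene, fell by 1.28 ± 0.19 (adjusted p = 0.00012). HIST1H4H, a core histone gene of the main cluster, fell from 24.3, 38.5 and 25.1 CPM to 2.3, 6.14 and 2.9 CPM (−2.95 ± 0.38, adjusted p = 5.6e-05). Most core histone RNAs lack a poly(A) tail and the library kit selects poly(A) RNA, so their counts cover only the part of this RNA that the kit captured. Core histone genes are also near-identical copies, and reads may be split between them.

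The promoter of HIST1H2AC, an H2A gene listed by RefSeq as H2AC6 and chosen for display after its values were seen, holds 3 CCAAT matches (ATTGG is the same box on the other strand). HIST1H2AC had 63.6, 97.2 and 58 CPM with prexasertib and 5.17, 26.3 and 9.91 CPM with the combination (−2.40 ± 0.45, adjusted p = 0.0013). The diluent libraries had 1.5, 4 and 2.99 CPM, and the combination was called higher than diluent (log2 fold change 2.30). The window is chr6:26123922-26124171 on GRCh38.p14, plus strand.
HIST1H2AC: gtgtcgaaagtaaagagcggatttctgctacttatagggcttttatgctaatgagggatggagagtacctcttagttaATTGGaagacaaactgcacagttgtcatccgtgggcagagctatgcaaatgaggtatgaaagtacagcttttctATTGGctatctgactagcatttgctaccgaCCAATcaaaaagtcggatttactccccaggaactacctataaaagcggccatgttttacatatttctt
The matches begin 172, 98 and 68 bases before the start. CCAAT letters were in 21 of the 25 windows matched to the histone list (84%), against 32.6% of all windows. This list too was assembled from known genes, so the share is a description only.

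Interferon-stimulated genes, which defend against viruses and foreign nucleic acid, were lower with less certainty. Of 42 tested (43 members), 21 (50%, against 17.1% over all genes) were called lower, with a median log2 fold change of −0.79. The count was 11 without prexasertib replicate 2, 13 without combination replicate 1 and 10 without combination replicate 3. CXCL10, a chemokine for T cells, fell from 12, 28.1 and 15.8 CPM to 1.08, 2.82 and 1.22 CPM (−3.45 ± 0.40, adjusted p = 4.3e-05). IFIT2, which binds foreign RNA, had 75.4, 674 and 76.2 CPM with prexasertib and 12.3, 47.4 and 13.2 CPM with the combination. Its fall of 3.50 ± 0.83 (adjusted p = 0.0084) became a log2 fold change of −1.64 without prexasertib replicate 2, the library with 674 CPM, and −4.42 without combination replicate 2. IFIH1 (MDA5), a sensor of double-stranded RNA, fell from 100, 249 and 93.4 CPM to 33.1, 60.1 and 34.6 CPM (−1.79 ± 0.32, adjusted p = 0.00098), and by 1.18 without prexasertib replicate 2. IRF1, a factor that induces such genes, fell by 0.96 ± 0.18 (adjusted p = 0.00076). GBP2, a guanylate-binding protein, was called higher (1.38 ± 0.40, adjusted p = 0.018), and this was lost without prexasertib replicate 2 (adjusted p = 0.065), prexasertib replicate 3 (0.061) or combination replicate 1 (0.074).

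**Figure D3:**
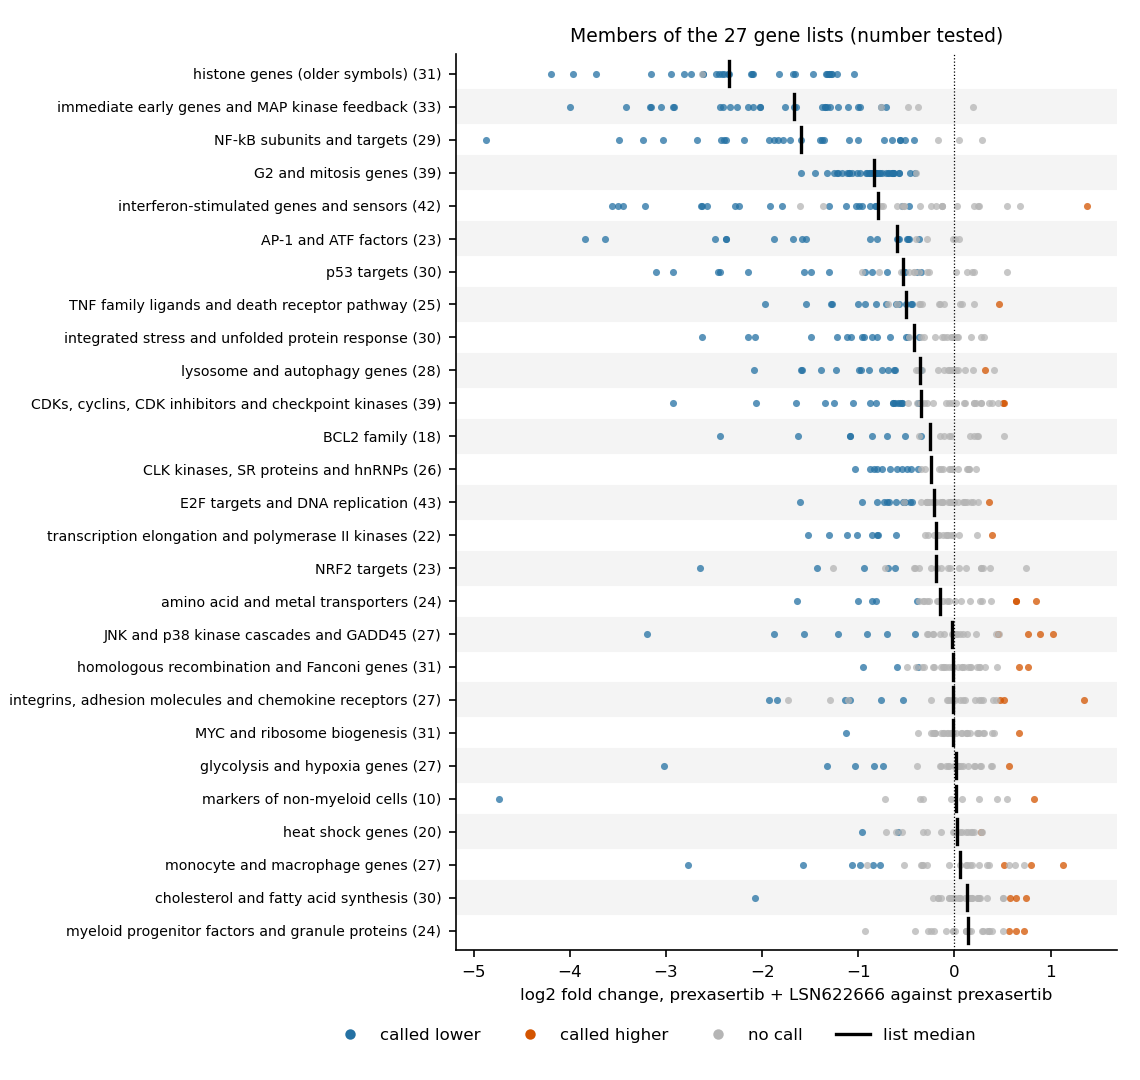
Log2 fold changes, combination against prexasertib, of the tested members of 27 gene lists, ordered by list median (black bar), with blue for called lower, orange for called higher and grey for no call. The histone, immediate early and NF-kB lists have the lowest medians (−2.34, −1.67 and −1.60), and the cholesterol and progenitor lists have medians just above 0 (0.13 and 0.14).

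The 12 genes with the largest falls among called genes with at least 5 CPM on average and no overlap between groups held signalling and surface proteins besides JUN, ATF3, DUSP8, CREB5 and IFIT2. SLAMF7, a surface receptor of immune cells, had 12, 25.7 and 8.09 CPM with prexasertib and 0.792, 1.3 and 0.814 CPM with the combination (−3.98 ± 0.42, adjusted p = 1.9e-05), and −3.37 without prexasertib replicate 2. PLA2G4C, a phospholipase that releases fatty acids from membranes, fell from 17.8, 44.7 and 16.5 CPM to 1.12, 3.13 and 0.826 CPM. Its log2 fold change was −3.96 ± 0.48 (adjusted p = 4.8e-05), from −3.34 without prexasertib replicate 2 to −4.76 without combination replicate 2. The combination still exceeded diluent (0.108 to 0.229 CPM) by 3.32 on the log2 scale (adjusted p = 0.0048), and by 2.52 without combination replicate 2. NEU4, a sialidase, fell evenly, from 19.4, 22.5 and 14.3 CPM to 1.6, 1.79 and 1.03 CPM (−3.67 ± 0.28, adjusted p = 9.0e-07). TEX14, a testis protein of cell bridges, fell by 3.51 ± 0.45 (adjusted p = 4.8e-05), with −2.76 without prexasertib replicate 2 and −4.15 without combination replicate 2. FRG2C and FRG2EP are near-identical copies, and their reads may be split between them. FRG2C had 3.19, 32.1 and 3.54 CPM against 0, 1.44 and 0.0122 CPM (−4.74 ± 1.28, adjusted p = 0.016). Its call ended without prexasertib replicate 2 (−2.80, adjusted p = 0.066), and the fitted value of −10.54 without combination replicate 2 rests on libraries at 0 and 0.0122 CPM. FRG2EP had a log2 fold change of −4.45 ± 1.22 (adjusted p = 0.021), and its call ended without prexasertib replicate 2 (−2.35, adjusted p = 0.068), combination replicate 1 (adjusted p = 0.07), combination replicate 3 (adjusted p = 0.064) or diluent replicate 2 (adjusted p = 0.05 after rounding). Without combination replicate 2 its value was −6.86.

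Lysosome and autophagy genes, which break down cargo, gave 13 lower calls among 28 tested genes (46.4%, against 17.1% over all genes). Their median log2 fold change was −0.36. GABARAPL1, a protein of the autophagosome membrane, fell from 9.76, 13.3 and 8.33 CPM to 2.67, 2.57 and 2.16 CPM (−2.08 ± 0.20, adjusted p = 8.4e-06). SQSTM1 (p62), a cargo receptor, fell from 414, 709 and 427 CPM to 137, 229 and 154 CPM (−1.58 ± 0.20, adjusted p = 5.0e-05). TFE3, a transcription factor for such genes, fell by 0.99 ± 0.13 (adjusted p = 5.7e-05) and NEU1, a lysosomal sialidase, by 1.39 ± 0.17 (adjusted p = 3.1e-05). Among elongation factors and polymerase II kinases, 8 of 22 tested genes (36.4%) were called lower. HEXIM1, the inhibitor of the elongation kinase CDK9, fell from 108, 171 and 98.3 CPM to 42.7, 50 and 39.1 CPM (−1.52 ± 0.18, adjusted p = 2.2e-05). AFF4, a scaffold of the elongation complex, fell by 1.30 ± 0.22 (adjusted p = 0.00044) and BRD2, a bromodomain protein, by 1.01 ± 0.17 (adjusted p = 0.00051).

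In the list of CLK kinases, SR proteins and hnRNPs, which govern splicing, 11 of 26 tested genes were called lower and 15 were not called. The share called lower was 42.3%, against 17.1% over all genes. TRA2A, a splicing activator, had 81.9, 88.9 and 88.9 CPM in the diluent libraries, 83.7, 99.1 and 86.6 CPM in the prexasertib libraries and 41.8, 63.4 and 54.6 CPM in the combination libraries. The diluent and prexasertib libraries overlapped and all combination libraries were lower, with log2 fold changes of −0.75 ± 0.13 against prexasertib (adjusted p = 0.00051) and −0.70 against diluent (adjusted p = 0.0035). RBM3, an RNA-binding protein induced by cold, showed the same order, with 225, 248 and 287 CPM with prexasertib and 144, 176 and 180 CPM with the combination (−0.60 ± 0.12, adjusted p = 0.0011, and −0.55 against diluent, adjusted p = 0.0072). SRSF10, a splicing repressor, fell by 0.84 ± 0.13 (adjusted p = 0.00026). CDKN2C, described above, was also lower than with diluent (−0.74, adjusted p = 0.0081).

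In the glycolysis, transporter, adhesion and NRF2 lists the share called lower was 18.5% to 22.2%, near the 17.1% over all genes. VEGFA, an angiogenic factor, fell from 268, 245 and 241 CPM to 147, 136 and 139 CPM (−0.84 ± 0.10, adjusted p = 2.1e-05) and SLC2A3, a glucose transporter, by 1.33 ± 0.24 (adjusted p = 0.00079), 2 of 5 lower calls among 27 glycolysis and hypoxia genes. SLC3A2, the heavy chain of amino acid transporters, fell from 445, 817 and 443 CPM to 135, 224 and 188 CPM (−1.64 ± 0.22, adjusted p = 5.4e-05). It was 1 of 5 transporter genes called lower of 24 tested, 9 with the replicate block in the 6 libraries. SLC39A11, a zinc transporter, rose from 28.4, 18.4 and 29.6 CPM to 47.7, 39.9 and 50.5 CPM (0.85 ± 0.16, adjusted p = 0.00077). PLAUR, the urokinase receptor, fell by 1.09 ± 0.14 (adjusted p = 5.1e-05) and CCR1, a chemokine receptor, by 1.14 ± 0.14 (adjusted p = 3.0e-05), among 6 lower calls in 27 adhesion and migration genes. The 3 higher calls of that list became 1 without combination replicate 3 and ended without prexasertib replicate 2 or combination replicate 1, while without prexasertib replicate 1 there were 5, and 7 with the replicate block in the 6 libraries. NFE2L2, which encodes the antioxidant factor NRF2, fell by 0.94 ± 0.14 (adjusted p = 0.00015). It was 1 of 5 lower calls among 23 NRF2 genes, 3 without prexasertib replicate 2, combination replicate 1 or combination replicate 3 and 8 with the replicate block in the 6 libraries.

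Among the genes that rose, the 12 with the largest changes gained about 4-fold to 6-fold, and none of them belonged to any of the 27 lists. SCART1 (chr10:133453928-133523558), a scavenger receptor-like gene, had 7.23, 3.44 and 4.95 CPM with prexasertib and 39.7, 23.7 and 24.2 CPM with the combination. It rose 5.6-fold (log2 2.49 ± 0.27, adjusted p = 1.4e-05), and it also lay above diluent (6.95 to 8.94 CPM) by 1.82 on the log2 scale (adjusted p = 0.00067). SPON2, a secreted matrix protein, rose from 12.9, 4.44 and 6.44 CPM to 59.3, 30.7 and 34.7 CPM (2.39 ± 0.35, adjusted p = 0.00016). For both genes the prexasertib libraries lay near or below the diluent libraries and the combination libraries lay above both.

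DNHD1, a dynein heavy chain-like gene of 43 exons (chr11:6497260-6593758), had 33, 21 and 32.5 CPM in the diluent libraries, 40.5, 38.6 and 28.5 CPM in the prexasertib libraries and 201, 101 and 115 CPM in the combination libraries. It rose by 1.96 ± 0.24 on the log2 scale over prexasertib (adjusted p = 3.2e-05) and by 2.27 over diluent (adjusted p = 7.3e-05). MAPK8IP2, a JNK scaffold protein, rose from 5.5, 4.06 and 3.24 CPM to 22.3, 13.5 and 13.4 CPM (1.94 ± 0.24, adjusted p = 3.9e-05, and 2.01 over diluent, adjusted p = 0.00021). KCTD11, an adaptor of a ubiquitin ligase, rose from 3.49, 3.62 and 4.8 CPM to 13.8, 14.5 and 15.6 CPM (1.88 ± 0.26, adjusted p = 9.1e-05). ZDHHC11, a palmitoyltransferase, rose by 2.24 ± 0.38 (adjusted p = 0.00043). HSPG2 (perlecan), a matrix proteoglycan, rose by 1.85 ± 0.39 (adjusted p = 0.0028) and MFSD7, a transporter, by 1.89 ± 0.34 (adjusted p = 0.00073). MYOF, a membrane repair protein, rose by 1.97 ± 0.38 (adjusted p = 0.0017), and by 2.58 without prexasertib replicate 1. TMCC1-AS1 is an antisense gene, and the strand setting of the counts is not given. Its rise of 2.08 ± 0.26 (adjusted p = 3.7e-05) may therefore include reads of its partner. GOLGA8J (1.88 ± 0.50, adjusted p = 0.012) belongs to a family of near-identical copies.

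**Figure D4:**
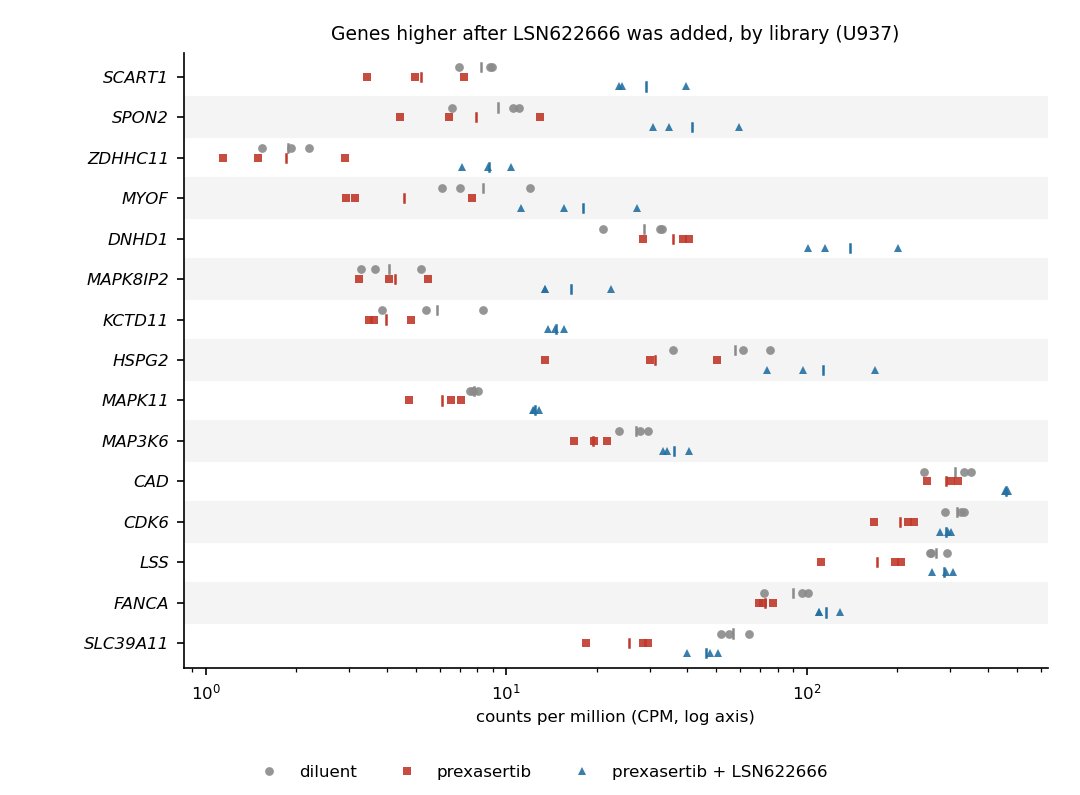
Levels in CPM (log axis) of 15 genes that were higher with the combination, by library: grey circles are diluent, red squares prexasertib and blue triangles the combination, with 3 libraries per group and a vertical tick at each group mean. For SCART1, DNHD1 and MAPK8IP2 the combination libraries lie above both other groups, while for CDK6, LSS and SLC39A11 they lie close to the diluent libraries or below them.

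The lists of cell identity and metabolism had medians near 0. Of 24 progenitor genes, 3 (12.5%) were called higher, near the 11.9% over all genes, 9 with the replicate block in the 6 libraries and 1 without prexasertib replicate 2, prexasertib replicate 3 or combination replicate 1, and the calls ended without combination replicate 3. Of 20 heat shock genes, 2 (10%) were called lower and 1 (5%) higher, against 17.1% and 11.9% over all genes, and with that block 7 and 3. The lower count was 1 without prexasertib replicate 1 or 2, any 1 combination replicate or diluent replicate 3. The higher call ended without prexasertib replicate 1 or 2 or combination replicate 2 or 3, and there were 2 without prexasertib replicate 3. Of 27 tested monocyte genes (29 members), 6 (22.2%) were called lower and 3 (11.1%) higher, against 17.1% and 11.9% over all genes. FCGR2A, an Fc receptor, fell from 61.1, 47.8 and 43.8 CPM to 30.4, 25.5 and 21.3 CPM (−0.98 ± 0.17, adjusted p = 0.00051), and CSF2RA, a subunit of the GM-CSF receptor, by 0.85 ± 0.15 (adjusted p = 0.00064). CSF1R, the M-CSF receptor, rose from 3.33, 2.74 and 2.44 CPM to 8.32, 5.48 and 4.89 CPM (1.13 ± 0.23, adjusted p = 0.0017). With the replicate block in the 6 libraries the monocyte counts were 10 lower and 8 higher, and the higher count was 1 without prexasertib replicate 2 or combination replicate 1. The summed level of the list was 784 to 826 CPM with prexasertib and 774 to 816 CPM with the combination. Among 30 tested cholesterol and fatty acid genes (31 members), 3 (10%) were called higher, against 11.9% over all genes, and 1 (3.33%) lower. The higher count was 8 with that block and 1 without prexasertib replicate 2 or combination replicate 3. The lower call ended with that block, without prexasertib replicate 2 or without any 1 combination replicate. LSS (lanosterol synthase) rose from 197, 111 and 206 CPM to 290, 260 and 307 CPM (0.74 ± 0.17, adjusted p = 0.0036), close to the diluent libraries (257 to 292 CPM). CAD, the first enzyme of pyrimidine synthesis, rose from 251, 319 and 301 CPM to 460, 468 and 455 CPM (0.67 ± 0.14, adjusted p = 0.0024). ODC1, the first enzyme of polyamine synthesis, fell by 1.13 ± 0.24 (adjusted p = 0.0023). These were the single calls in each direction (3.23% each) among 31 tested genes of ribosome biogenesis and their regulators, where the block gave 7 higher and 2 lower. FANCA, a Fanconi anemia protein, rose from 69.1, 71.6 and 77.4 CPM to 110, 129 and 110 CPM (0.67 ± 0.13, adjusted p = 0.0015), in a list of 31 recombination and Fanconi genes whose median log2 fold change was −0.02. That list had 3 lower (9.68%) and 2 higher (6.45%) calls, both under the shares over all genes, and 7 and 6 with the block. The lower calls ended without prexasertib replicate 2 or combination replicate 3.

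Against the diluent libraries, which carried the caspase inhibitor but neither other compound, 1186 genes (6.88%) were called higher and 709 (4.11%) lower in the combination, while prexasertib alone gave 3160 (18.3%) higher and 2209 (12.8%) lower. At least a 2-fold rise over diluent was found for 682 genes (3.96%) with the combination and 1882 (10.9%) with prexasertib, and at least a 2-fold fall for 0.0812% and 0.360% of genes. These comparisons share the diluent libraries, and they share the prexasertib or combination libraries with the comparison above, so they are set side by side only. For the immediate early list the median log2 difference from diluent was 2.08 with prexasertib and 0.27 with the combination, for NF-kB 1.92 and 0.41, for histones 2.19 and 0.00 and for AP-1 and ATF factors 0.59 and −0.03. For interferon-stimulated genes it was 0.95 and 0.41, and for p53 targets 0.40 and −0.02. The G2 and mitosis list passed from 0.41 with prexasertib to −0.40 with the combination, and the E2F list was at −0.17 and −0.42. Members of the histone list ran from −1.27 to 3.90 with the combination against diluent, with 3 called higher, 2 lower and 26 not called. The medians of all tested genes were 0.00 in both comparisons after rounding. How many of all genes lay wholly above or below the diluent libraries was not counted. Such statements for named genes describe the libraries and are not calls. The combination counts were 425 higher and 179 lower without combination replicate 1, 463 and 247 without diluent replicate 2, and 557 and 295 without diluent replicate 3. The lower count was 391 without combination replicate 3 and 1275 without prexasertib replicate 2. Upper-quartile scaling, which moved the median of all genes to 0.11, gave 1528 higher and 236 lower for the combination, DESeq2 gave 1591 and 1452, and GC offsets gave 768 and 790. For prexasertib against diluent the counts were 1803 higher and 881 lower without prexasertib replicate 2, and 2893 and 3265 with GC offsets.

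Genes called in the 2 directions differed in build. Among 14118 protein-coding genes matched to GENCODE v29, the 1713 called higher had a median exonic GC content of 56.6% and 12 exons, and the 2582 called lower had 45.6% and 8 exons, against 49.3% and 9 exons over all of them. From the lowest to the highest of 5 equal classes of GC content the share called higher went from 4.86% to 24.3% and the share called lower from 26.1% to 11%. Of 318 genes with 1 exon, 5.35% were called higher and 31.4% lower, while of 662 genes with at least 31 exons 23.4% were called higher and 12.7% lower. The order by exons was also seen within the genes of higher GC content, where the share called higher rose from 9.28% under 6 exons to 30.4% at 18 exons or more, and within those of lower GC content (4.9% and 9.14%). Of 489 genes spanning at least 300000 bases, 20.4% were called higher, with a median log2 fold change of 0.23. The libraries differed in GC content too. The share of counts from the GC-richest genes of any type, as given above, was higher in each combination library than in each prexasertib library.

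With offsets that remove the average dependence on GC content in each library, an alternative chosen after the data were seen, 2124 genes were called higher and 2701 lower, and the 5 classes of GC content held 11.7% to 14.4% higher and 16.1% to 17.1% lower. Of the genes called in the analysis without offsets, 81% of those higher and 84.2% of those lower were called again. The log2 fold change under these offsets was −3.93 for JUN, −3.28 for CXCL8, −1.54 for AURKA, 2.25 for SCART1 and 1.88 for DNHD1. MAPK11 (0.82) and MAP3K6 (0.67) kept their calls, and RIPK3 did not (0.39, adjusted p = 0.087 by edgeR's quasi-likelihood test). What part of the GC difference came from the libraries and what part from the cells was not tested.

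**Figure D5:**
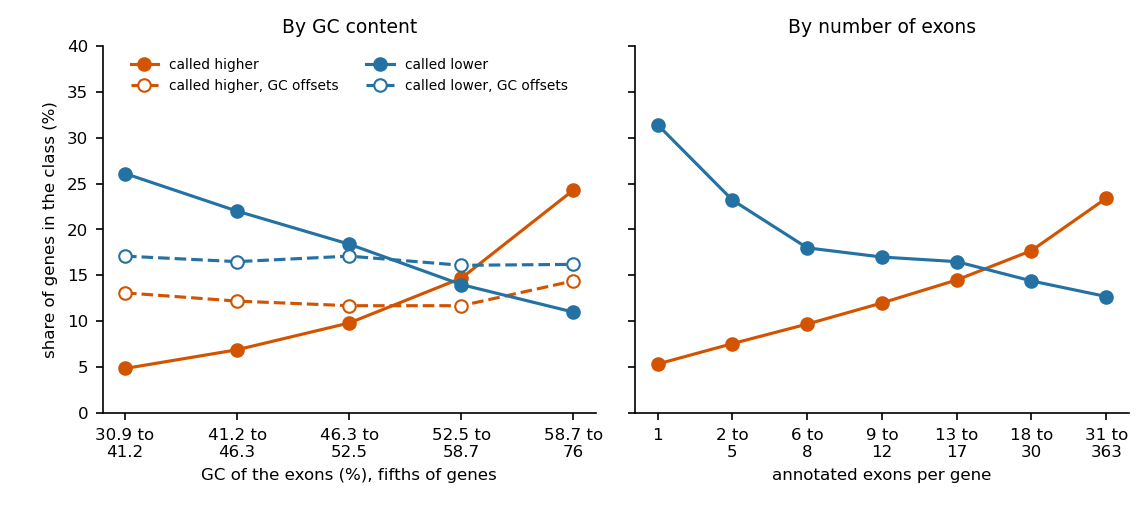
Share of protein-coding genes called higher (orange) or lower (blue) with the combination, in 5 classes of exonic GC content (left, with GC offsets as open points and dashed lines) and in classes of annotated exons (right). Without offsets the share called higher rises with GC from 4.86% to 24.3%, with offsets it stays between 11.7% and 14.4%, and with exon number it rises from 5.35% to 23.4%.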

How the data were processed

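RNA of U937 and ML1 cells was sequenced from 15 libraries in 5 groups of 3, and the authors deposited raw counts per gene for 26485 genes. Per the submitters' processing notes, TopHat2 2.0.14, Bowtie2 2.2.6 and featureCounts 1.4.6 were used with hg38. The sources used here do not give the annotation, the strand setting or the handling of read mates, so genes that overlap may share reads. Columns were matched to samples by their names.

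The deposited counts were tested with edgeR 4.0.16 (R 4.3.3, limma 3.58.1): TMM scaling, edgeR's filter on low counts by group (17243 genes kept), 1 mean per group over all 15 libraries, which share 1 estimate of the spread (10 residual degrees of freedom), and the robust quasi-likelihood test. P-values were adjusted over the 17243 genes by the Benjamini-Hochberg method, and an adjusted p under 0.05 made a call. Standard errors are the log2 fold change divided by the root of the F statistic. CPM values use TMM library sizes. On simulated counts at these depths, the test of the combination against prexasertib recovered 81 of 100 genes changed 2-fold and 98 of 100 changed 4-fold among 16997 genes.

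The members and the 27 gene lists were chosen with earlier results of these data known. Named genes were up to 12 each way with the largest change among called genes with at least 5 CPM on average and no overlap between groups, a fixed set (TNF, JUN, FOS, ATF3, CHEK1, CDK2 and TNFRSF1A), and, from each list, the called members of smallest p (up to 4), plus 1 in the rarer direction. Replicate numbers are those of the labels. Same-numbered prexasertib and combination libraries deviated together from their group means (correlations 0.409, 0.37 and 0.384, each above the limit of 0.1), so the numbers were taken as pairs. Differently numbered ones had correlations of −0.349 to −0.103. Deviations from a group mean sum to 0, so these negative values are no separate evidence of pairing. Errors and adjusted p-values are from the fit without the replicate block unless stated. Alternatives were DESeq2 1.42.0, other scaling and filters, other sets of libraries, the replicate block, thinned counts, a fold threshold and each library left out, and, chosen after the data were seen, GC offsets, each pair left out and each diluent library left out. Gene coordinates and exons are from GENCODE v29, which matched 15923 tested genes (92.3%), and promoters from RefSeq (GRCh38.p14), which matched 12181 (70.6%). Some genes that the naming rule selects are not reported here.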

Additional observations from a re-analysis of the deposited data

How the results depend on the processing

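Between prexasertib and the combination, no gene was called in opposite directions by the 15-library fit and an alternative, and 1 called gene turned its sign, without a call, under the GC offsets. With the replicate block, 2721 genes were called higher and 3321 lower in 15 libraries, against 2048 and 2947 without it. In the 6 libraries the block gave 3733 and 3704, against 1462 and 2128 without it. With a threshold of 2-fold the counts were 594 and 1253. Leaving out 1 library or 1 pair gave 1099 to 2110 higher and 1720 to 3057 lower, the lowest counts without pair 2 and, for single libraries, 1105 and 1794 without prexasertib replicate 2. Higher counts were 1331 without combination replicate 1, 1362 without combination replicate 3, and 1363 and 1255 without pairs 1 and 3. The share of calls that were higher was 41%, 50.7% with upper-quartile factors (2633 higher, 2560 lower), 36.3% without pair 3 and 32.2% at the 2-fold threshold. DESeq2 gave 2395 and 3118, and GC offsets, chosen after the data were seen, 2124 and 2701. Leaving out a library or a pair moved CDK2 (0.10) between −0.03 without pair 2 and 0.21 without pair 1. TNFRSF1A (0.08) moved between −0.09 without prexasertib replicate 2 and 0.20 without prexasertib replicate 1, with −0.02 without pair 2 and −0.01 with GC offsets. Neither was called. Of 3757 values of named genes under alternatives, 3587 kept direction and call, 166 kept direction but lost the call, and 4 turned. The named genes were chosen largely by their change or p in the same fit, so these counts do not describe all genes. Over all called genes, 51.8% of higher and 60.1% of lower calls were kept without prexasertib replicate 2. Without pair 2 these shares were 51.8% and 57.6%. Why calls were lost was not tested. The 3 libraries per group limit the precision.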

Other observations

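The genes with the smallest p-values, a selection added after the values were seen, included genes outside the lists. LENG8, which encodes a nuclear protein, had 255, 223 and 249 CPM with prexasertib and 526, 468 and 456 CPM with the combination (1.00 ± 0.11, adjusted p = 2.1e-05). SEC31B, a coat protein of vesicles leaving the endoplasmic reticulum, rose from 52.7, 31.8 and 35.4 CPM to 179, 119 and 129 CPM (1.83 ± 0.20, adjusted p = 1.3e-05). MAPK8IP3, a JNK scaffold related to MAPK8IP2, rose from 59.2, 51.8 and 54.9 CPM to 112, 97.9 and 99.4 CPM (0.90 ± 0.10, adjusted p = 1.8e-05). SFI1, a centriole protein, rose from 27.3, 24.9 and 29.1 CPM to 59.9, 58.5 and 55.5 CPM (1.10 ± 0.11, adjusted p = 1.1e-05). For these 4 genes the combination libraries also lay above all 3 diluent libraries.

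Among the falls of this selection, PIM1, a survival kinase, went from 296, 291 and 235 CPM with prexasertib to 87.3, 87.5 and 61.9 CPM with the combination (−1.80 ± 0.16), below the diluent libraries at 99.9 to 138 CPM. IL10RA, a subunit of the receptor for interleukin-10, fell from 74.1, 123 and 56.4 CPM to 13.9, 19.1 and 12.6 CPM (−2.48 ± 0.25, adjusted p = 1.1e-05). CCNG2, an unconventional cyclin found in arrested cells, fell from 55.1, 67.4 and 39.8 CPM to 12.3, 14.3 and 12.5 CPM (−2.05 ± 0.20, adjusted p = 1.1e-05). For IL10RA and CCNG2 the combination libraries overlapped the diluent libraries. CD300LB, an activating receptor of myeloid cells, fell from 36, 47.3 and 28.4 CPM to 3.47, 4.12 and 3.09 CPM (−3.39 ± 0.28), above the diluent libraries at 1.56 to 2.36 CPM.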
